A study of Mus musculus with 30 samples.

Results

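Oxidative phosphorylation was followed through the nuclear genes of its 5 enzyme complexes in mouse olfactory epithelium, the layer of the nose that holds the odour-sensing neurons with their supporting and stem cells. Members were the probe sets of the Affymetrix MG-U74Av2 array that are annotated to exactly 1 gene and whose symbol starts with Nduf, Sdh, Uqcr, Atp5 or with Cox and a digit. The rule gave 78 of the 8251 genes that the array measures with probe sets of 1 gene each, on 106 of its 12488 probe sets. By their symbols 29 genes code for subunits of complex I, 4 for complex II, 7 for complex III, 14 for complex IV and 14 for complex V. The other 10 are assembly factors, which Cox7a2l, known as a factor for supercomplexes, was counted among.

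The tissue was microdissected at 0, 2, 8, 16 and 48 h after bilateral olfactory bulbectomy, the removal of both olfactory bulbs, to which the axons of the sensory neurons run. Mice were 6 weeks old and either wild type or SR-A mutants. SR-A is a scavenger receptor of macrophages and is the product of Msr1. Each of the 10 genotype and time groups had 3 arrays, 30 in all. The labels name no strain or allele, do not say whether the mice of 0 h had been operated on, and do not tie each array to its own mouse. The p-values therefore rest on the spread from array to array, part of which may be technical.

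In oxidative phosphorylation, complexes I and II pass electrons from NADH and succinate to ubiquinone, complex III passes them on to cytochrome c, and complex IV passes them to oxygen. Complexes I, III and IV pump protons across the inner mitochondrial membrane, and complex V, the ATP synthase, lets them back and makes ATP. Complexes I, III, IV and V also hold subunits encoded by mitochondrial DNA, and no symbol for a mitochondrially encoded gene was found among the array's annotated genes. Olfactory sensory neurons spend ATP on keeping their ion gradients during odour signalling.

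Signals of 74 member probe sets, for 67 genes, were bright enough to be tested, that is above 572, the median of all signals, on at least 3 of the 30 arrays. Among them were 28 probe sets of complex I, 4 of complex II, 7 of complex III, 11 of complex IV, 16 of complex V and 8 of assembly factors. No tested member had an array at or below the floor of 113.7, to which lower signals were set. A further 11 member probe sets lay at or below that floor on all 30 arrays. The 11 genes without a tested probe set were Ndufa1, Ndufa12, Ndufc2, Cox5a, Cox6a2, Cox7a1, Cox8a, Atp5g1, Atp5j2, Cox14 and Cox20. Of the tested member probe sets 24 carry a letter f, i, r, s or g in their name, which marks sets that may share probes with related sequences or that were chosen under other rules, so their signal may include other transcripts.

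The labels and the arrays were checked first. Signals of the targeted gene, Msr1, were higher under the mutant label: its brighter probe set ran from 32.6 to 295.1 with a median of 161.0 in 15 wild-type-labelled arrays, and from 297.5 to 587.4 with a median of 444.5 in 15 mutant-labelled ones. Which part of Msr1 the mutation removes is not given in the labels, so Msr1 could not check them, and the groups are called by their labels below. The 3 mutant-labelled arrays of 2 h stood apart in their control probe sets: the log2 difference between the 3' and 5' ends of Gapdh was 0.15 to 5.59 in them and -0.31 to -0.13 in the other 27 arrays. They were therefore left out of the fit except in the comparisons that need them. Olfactory marker protein (Omp) and the signalling genes Adcy3 and Cnga2, which define mature sensory neurons, were tested and bright.

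The promoters of 3 members are shown because they lead the results: Atp5e and Uqcr11 had the largest genotype differences of complexes V and III, and Cox8b the largest change with time. Each run is the 250 bases upstream of the RefSeq start site in GRCm38.p6, 5′ to 3′ on the strand of the gene, with matches to the motifs searched in capitals. They lie at chr2:174464102-174464351, chr10:80406822-80407071 and chr7:140900447-140900696, each on the minus strand.
Atp5e: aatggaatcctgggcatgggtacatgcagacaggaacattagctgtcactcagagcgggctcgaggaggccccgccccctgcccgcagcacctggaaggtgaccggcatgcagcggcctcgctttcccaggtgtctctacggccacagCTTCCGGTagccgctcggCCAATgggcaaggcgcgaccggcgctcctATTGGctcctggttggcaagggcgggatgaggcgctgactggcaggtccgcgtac
Uqcr11: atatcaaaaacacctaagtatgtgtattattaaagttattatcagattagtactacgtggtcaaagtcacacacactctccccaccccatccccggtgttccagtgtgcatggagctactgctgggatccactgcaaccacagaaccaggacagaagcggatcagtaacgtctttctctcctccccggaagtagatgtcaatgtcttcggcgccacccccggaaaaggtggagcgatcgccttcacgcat
Cox8b: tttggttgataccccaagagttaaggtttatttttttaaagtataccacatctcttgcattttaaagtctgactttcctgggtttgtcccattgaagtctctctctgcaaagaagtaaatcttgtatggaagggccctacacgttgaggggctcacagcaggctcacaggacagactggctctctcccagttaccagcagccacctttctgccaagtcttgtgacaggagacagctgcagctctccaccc
The capitals in Atp5e mark 1 match to an ETS motif, read on the other strand, and 2 to CCAAT, and none of these overlap. No motif match was found in the windows of Uqcr11 or Cox8b.

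Both strands of these windows were searched for the NRF1 motif (GCGCA, any base, GCGC), ACCGGAAG (ETS, the family of GABP), AAGATGGC (YY1) and CCAAT, since NRF1, GABP and YY1 are known regulators of respiratory chain genes. A window was listed for 63 of the 78 member genes. The NRF1 motif stood in 9 of them (14.3%), among them Atp5c1, Cox6a1, Ndufa5, Sdha and Sdhd, against 10.2% of 4368 windows of tested genes and 4.23% of 27025 windows of all genes. The ETS motif stood in 4 (6.35%), those of Atp5e, Ndufaf1, Ndufb6 and Sdhd, against 3.98% and 1.95%. The YY1 motif stood in 2 (3.17%), those of Atp5j and Cox20, against 2.47% and 1.83%. CCAAT stood in 42.9%, against 40.3% and 37.5%. The 63 windows include untested members. In the 53 windows of tested members, the like set for the tested genes, the shares were 17% (NRF1), 7.55% (ETS), 1.89% (YY1) and 39.6% (CCAAT). All of these are matches of letters and show no binding.

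The member probe set with the highest mean signal in each class was Ndufb5 for complex I, Sdhc for complex II, Uqcrq for complex III, Cox6c for complex IV, Atp5l for complex V and the copper chaperone Cox17 for assembly factors. Signals of different probe sets are not comparable as levels, since probes differ in how they bind. In complex IV, several subunits exist as a general form and as forms known from muscle or testis. Cox6a1 and Cox7a2, the general forms, read 16411 to 26608 and 11147 to 20879 over the 30 arrays, while the muscle forms Cox6a2 (79.5 to 442.2) and Cox7a1 (6.8 to 260.6) were not tested. For subunit 8 it was the general form Cox8a that was dim, at 9.9 to 101.4. The muscle form Cox8b read 1175 to 8741 on one probe set and 374.6 to 1596 on another, and the testis form Cox8c read 1358 to 2872 on its tested probe set. Cox4i1 was tested on 1 of its probe sets (537.1 to 1128), as was Cox6b1 (305.3 to 707.5). Cox6b2, a testis form, was tested on a dim set of 274.0 to 1086. Of the c-ring genes of complex V, Atp5g2 read 2297 to 3499 on its tested probe set and Atp5g1 at most 442.7. Whether a dim signal reflects the transcript or the probes was not tested.

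The clearest pattern was between the labelled genotypes. Averaged over 0, 8, 16 and 48 h (12 arrays of each label), 44 of the 74 member probe sets were higher in the mutant-labelled arrays and 8 were lower, at an adjusted p under 0.05 in limma with Benjamini-Hochberg adjustment over 6968 tested probe sets. Of all tested probe sets 17.9% were higher and 24.7% lower (42.6% in all). The median member was higher by 0.20 on the log2 scale, and the median of all tested probe sets was -0.04. Counted once per gene, by the brightest tested probe set, 43 of 67 genes were higher and 6 lower. With each of the 24 arrays left out in turn, 47 of the 52 calls held every time, 41 of them higher.

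All 7 genes of complex III were higher, with a median of 0.39. In complex I 19 of 28 probe sets were higher and 2 lower, in complex IV 6 of 11 higher and 1 lower, in complex V 9 of 16 higher and 2 lower, and in complex II 2 of 4 higher and 1 lower. Assembly factors, which help build the complexes and are not part of them, had 1 of 8 higher, 2 lower and a median of 0.00. Differences between the complexes were not tested against each other.

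**Figure D1:**
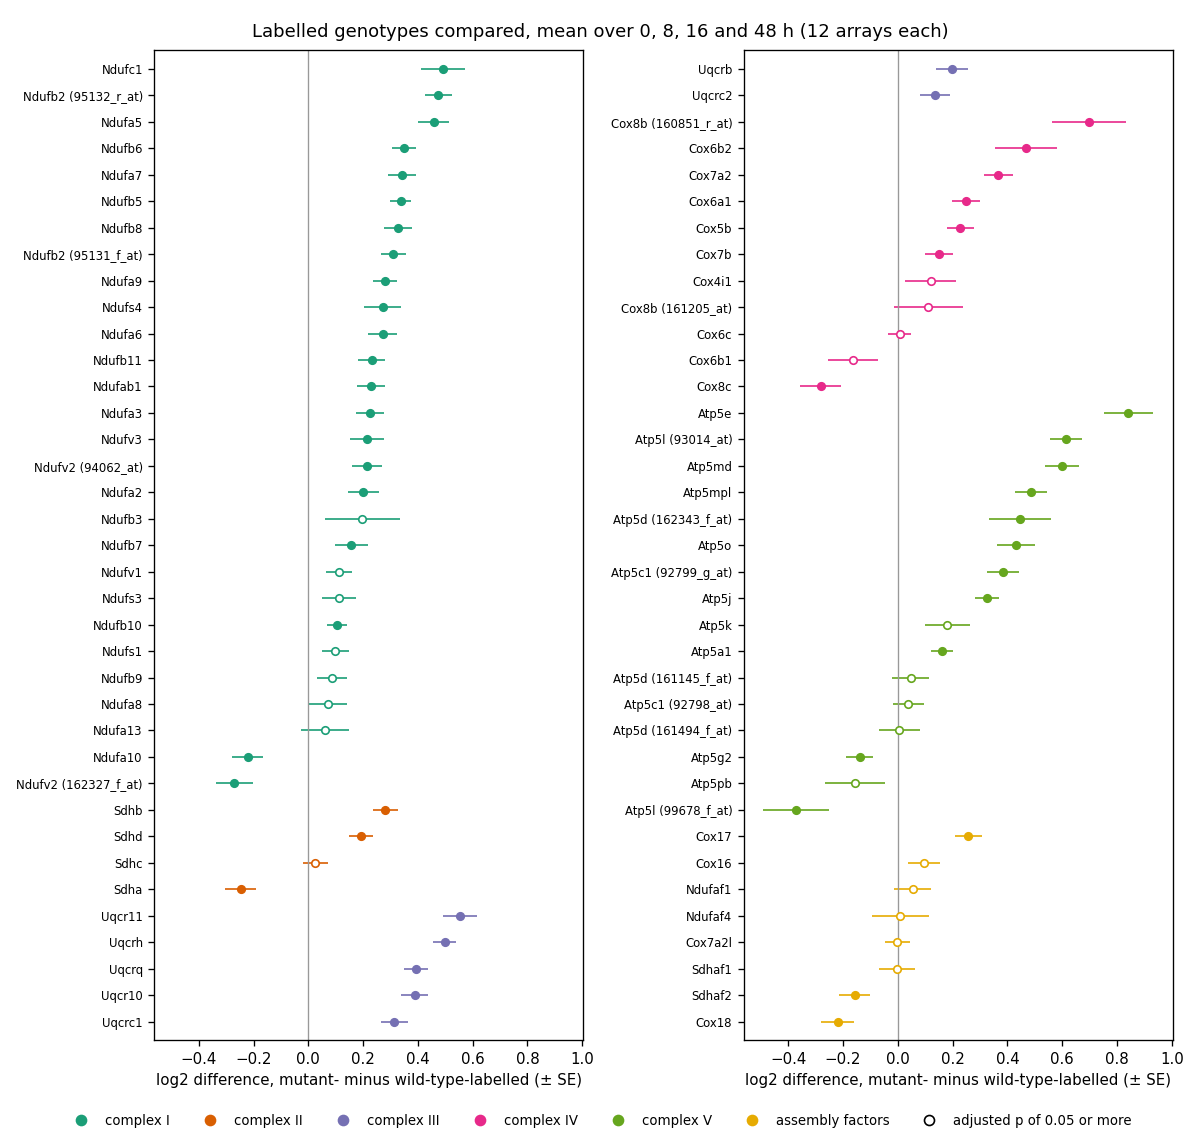
Log2 difference of each tested member probe set between mutant- and wild-type-labelled arrays, averaged over 0, 8, 16 and 48 h (12 arrays of each label), with its SE on the x axis and members by complex on the y axis. Filled points have an adjusted p under 0.05; 44 of them lie right of 0 and 8 left of it, and the 7 of complex III all lie on the right.

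In complex III the difference was largest for the small subunit Uqcr11. It read 4384 to 7110.0 (median 6109) in the 12 wild-type-labelled arrays and 7425 to 11179 (median 8521) in the 12 mutant-labelled ones, with no overlap. Its log2 difference was 0.55 ± 0.06 (SE; adjusted p = 9.85e-07, limma). Uqcrh, the hinge protein that helps cytochrome c1 meet cytochrome c, read 10792 to 13307 (median 12523) against 15432 to 19460 (median 16856), 0.50 ± 0.04 higher (adjusted p = 3.74e-08, limma). The quinone-site subunit Uqcrq read 13084 to 15932 against 17430 to 21949, and Uqcr10 7307 to 9117 against 9746 to 12960, and neither overlapped. The core proteins differed less: Uqcrc1 was 0.31 ± 0.05 higher and Uqcrc2 0.14 ± 0.05 (adjusted p = 0.0467, limma), with Uqcrc2 arrays of both labels overlapping widely.

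In complex V the gene with the largest difference of all members was Atp5e, the epsilon subunit of the central stalk, whose promoter is printed above. It read 2717 to 5150 (median 4272) in the wild-type-labelled arrays and 5000.0 to 10339 (median 7416) in the mutant-labelled ones, and 11 of the 12 mutant-labelled arrays lay above every wild-type-labelled one. The difference was 0.84 ± 0.09, or 1.79-fold (adjusted p = 5.27e-07, limma). The next 3 were membrane subunits. Atp5l (subunit g), on its bright probe set, read 15190.0 to 20003 against 23246 to 32268 without overlap, 0.61 ± 0.06 higher. Atp5md was 0.60 ± 0.06 higher, with 10 of 12 arrays above the wild-type-labelled range, and Atp5mpl 0.49 ± 0.06 higher without overlap. In the peripheral stalk Atp5o, which confers oligomycin sensitivity, was 0.43 ± 0.07 higher and Atp5j 0.33 ± 0.04 higher, while Atp5pb differed by -0.16 ± 0.11 (adjusted p = 0.261, limma). Of the catalytic head Atp5a1, the alpha subunit, was 0.16 ± 0.04 higher. The c-ring gene Atp5g2 went the other way, 0.14 ± 0.05 lower (log2 difference -0.14, adjusted p = 0.0281, limma).

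Most calls in complex I were accessory subunits: 18 of their 23 probe sets were higher and 1 lower, against 1 higher and 1 lower among 5 probe sets of the core subunits Ndufs1, Ndufs3, Ndufv1 and Ndufv2. The largest were Ndufc1 (0.49 ± 0.08), Ndufb2 on the dimmer of its 2 tested sets (0.47 ± 0.05) and Ndufa5 (0.46 ± 0.06). On that set Ndufb2 read 7852 to 10465 in the wild-type-labelled arrays and 12113 to 16161 in the mutant-labelled ones, without overlap. Its brighter set read 10813 to 13976 against 12854 to 18907, 0.31 ± 0.05 higher, with 11 of 12 mutant-labelled arrays above the wild-type-labelled range. Ndufb5, Ndufb6 and Ndufa7 did not overlap either. Outside complex I the member probe sets without overlap between the 12 and 12 arrays were Uqcr10, Uqcr11, Uqcrh, Uqcrq, Atp5l and Atp5mpl. The share of all tested probe sets without overlap is not given here, so no excess among members can be read from these. Ndufa10, an accessory subunit of the membrane arm, was lower, at 664.7 to 955.2 against 817.8 to 1331 (-0.22 ± 0.06, adjusted p = 0.00309, limma).

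Complex II showed both directions. Sdha, the flavoprotein that oxidises succinate, read 1480 to 2251 (median 1991) in the wild-type-labelled arrays and 1487 to 1966 (median 1618) in the mutant-labelled ones, a log2 difference of -0.25 ± 0.06 (adjusted p = 0.00158, limma). The iron-sulfur subunit Sdhb was higher by 0.28 ± 0.05 and the membrane anchor Sdhd by 0.19 ± 0.04, while the other anchor, Sdhc, differed by 0.03 ± 0.05. Sdhaf2, the factor that inserts the flavin into Sdha, was lower (-0.16 ± 0.06, adjusted p = 0.0281, limma).

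In complex IV the general forms Cox7a2 (0.37 ± 0.05) and Cox6a1 (0.25 ± 0.05) were higher, as were Cox5b (0.23 ± 0.05), Cox7b (0.15 ± 0.05) and Cox6b2 (0.47 ± 0.11). Cox8b was higher on the brighter of its sets alone (0.70 ± 0.14). Cox4i1 differed by 0.12 ± 0.09, Cox6b1 by -0.16 ± 0.09 and Cox6c by 0.01 ± 0.04, and none of these passed. Cox8c was lower (-0.28 ± 0.07, adjusted p = 0.00457, limma). Among assembly factors Cox17, which delivers copper to complex IV, was higher (0.26 ± 0.05), and Cox18, which inserts a mitochondrially encoded subunit into the membrane, was lower (-0.22 ± 0.06).

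Probe sets of the same gene disagreed in a few cases. Atp5l was higher on its bright set and lower on a dim one (-0.37 ± 0.12, adjusted p = 0.0159, limma), which read 206.4 to 608.1 over the same 24 arrays. On this dim set the 12 mutant-labelled arrays compared read at most 475.9, below the filter of 572. Signals above the filter lay in wild-type-labelled arrays and in a mutant-labelled array of 2 h, which was not compared. The lower call of the dim Atp5l set may thus be partly preset by the filter. Ndufv2 was 0.21 ± 0.05 higher on a bright set and lower on a dimmer one (-0.27 ± 0.07, adjusted p = 0.00326, limma). Both of the dimmer sets carry the letter f. Of 3 tested sets for Atp5d, the delta subunit, 1 was higher by 0.45 ± 0.11 and the others differed by 0.05 ± 0.07 and 0.01 ± 0.07. Atp5c1 was 0.38 ± 0.06 higher on 1 of its bright sets, and on the other the difference did not pass (0.04 ± 0.06). Cox8b was 0.70 ± 0.14 higher on its brighter set, and on the other the difference did not pass (0.11 ± 0.13).

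**Figure D2:**
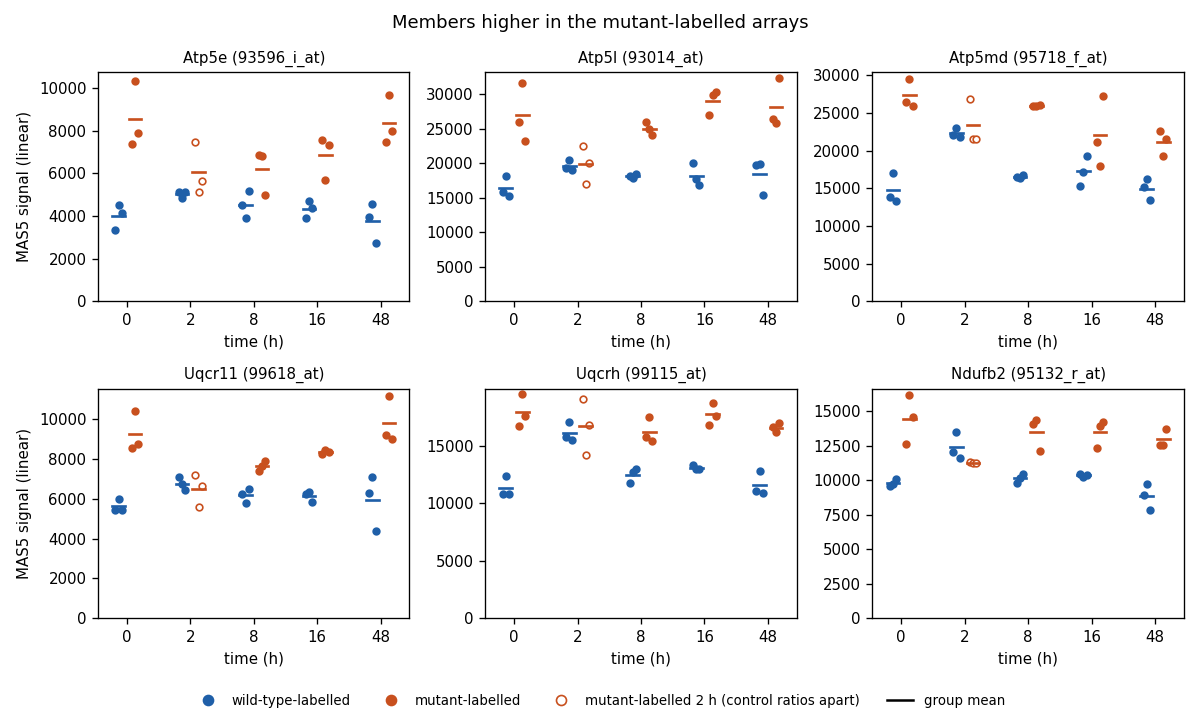
MAS5 signal (linear scale) of 6 members in every array by time in hours, with 3 arrays per group and a bar at the group mean; open points are the mutant-labelled 2 h arrays. At 0, 8, 16 and 48 h the mutant-labelled arrays of Atp5l, Uqcr11, Uqcrh and Ndufb2 (the dimmer of its tested sets) lie above every wild-type-labelled array of those times.

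The genotype difference was called at each time that could be compared without the 2 h arrays, with varying reach. At 0 h 36 of 74 members were higher and 3 lower, against 9.82% and 13.5% of all tested probe sets (23.3% in all). At 8 h 9 were higher and 1 lower, against 3.26% and 3.59% of all (6.85% in all). At 16 h 18 were higher and 1 lower, against 4.85% and 6.37% (11.2% in all), and at 48 h 31 and 0, against 8.98% and 11.0% (20.0% in all). These 4 comparisons share no arrays. Higher at all 4 times were 5 members, Atp5l, Uqcrq, Ndufb2 (dimmer set), Atp5mpl and Uqcrh, which is 5 of 74 against 30 of all 6968 (0.431%). Log2 differences were above 0 at all 4 times for 38 members, against 15.4% of all tested probe sets.

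Uqcrh shows the course. At 0 h it read 10792, 12319 and 10831 in the wild-type-labelled arrays and 16658, 19460 and 17524 in the mutant-labelled ones, 0.66 ± 0.09 higher (adjusted p = 4.8e-05, limma). At 8 h the difference was 0.38 ± 0.09, at 16 h 0.43 ± 0.09 and at 48 h 0.52 ± 0.09. Atp5e was 1.08 ± 0.18 higher at 0 h (adjusted p = 0.000514, limma), where it read 3337, 4532 and 4161 against 7384, 10339 and 7863. At 48 h it was 1.18 ± 0.18 higher (2.27-fold), at 16 h 0.65 ± 0.18, and at 8 h 0.45, which did not pass. Atp5md differed most at 0 h (0.90 ± 0.12) and at 8 h (0.65 ± 0.12), when it read 16442, 16411 and 16745 against 25846, 25852 and 25997. At 16 h Ndufa5 (0.66 ± 0.11) and Ndufs4 (0.50 ± 0.13) were among the 6 members called higher with the largest differences between the labels. At 0 h the lower members were Cox8c (-0.73 ± 0.15), Atp5pb (-0.70 ± 0.22) and Ndufa10 (-0.51 ± 0.11), at 8 h the dimmer set of Ndufv2 (-0.50 ± 0.14) and at 16 h Sdha (-0.40 ± 0.11).

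Single arrays moved these counts. Leaving out 1 array at a time gave 25 to 37 members at 0 h, the fewest without replicate 2 of the mutant-labelled group, and 20 to 32 at 48 h, the fewest without replicate 3 of the wild-type-labelled group. At 8 h it gave 1 to 7, with 1 without mutant-labelled replicate 2, 3 without wild-type-labelled replicate 3, 4 without mutant-labelled replicate 3, and 5 without mutant-labelled replicate 1 or wild-type-labelled replicate 2, and Atp5md alone was called every time. At 16 h it gave 7 to 14, with 7 without wild-type-labelled or mutant-labelled replicate 3, 8 without wild-type-labelled replicate 2, and 12 without replicate 1 of either, and Ndufb6, Atp5l, Ndufa5, Ndufb5 and Uqcrh were called every time. Fits of only the 6 arrays compared called 0 members at 8 h, 8 at 16 h and 3 at 48 h. At 8 h the fit of all 30 arrays called 5 and quantile normalization 6, and at 16 h quantile normalization called 11.

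**Figure D3:**
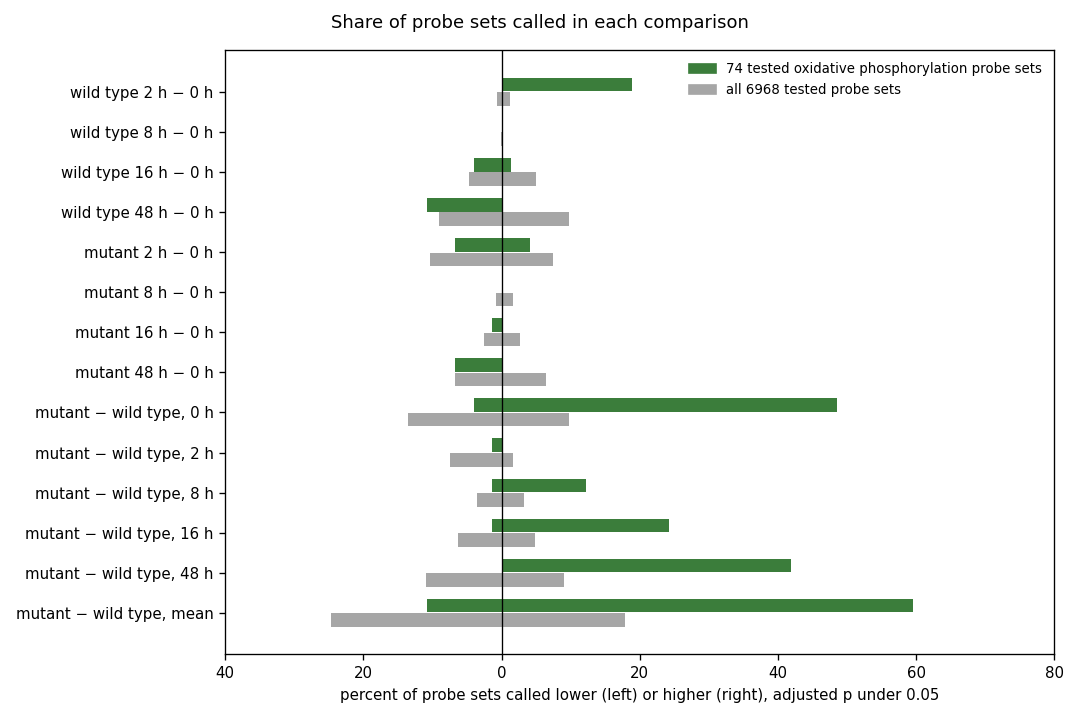
Percent of the 74 tested member probe sets (green) and of all 6968 tested probe sets (grey) called lower (left of 0) or higher (right of 0) in each comparison, at an adjusted p under 0.05. Members called higher exceed the grey bar in the genotype comparisons at 0, 8, 16 and 48 h and for the mean of these times, and in the wild-type-labelled comparison of 2 h with 0 h.

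At 2 h the genotype comparison rests on the mutant-labelled arrays that stand apart. It called 1 member, Ndufb8, as lower in them (-0.42 ± 0.10, adjusted p = 0.0126, limma), against 7.41% of all tested probe sets lower and 1.62% higher (9.03% in all). Leaving out wild-type-labelled replicate 1 or 2 or mutant-labelled replicate 1 gave 0 members and leaving out mutant-labelled replicate 2 gave 3. With replicate 2 as the only mutant-labelled array, a choice made after the values were seen, 0 members were called, as with the 6 arrays fitted alone. Omp differed from the wild-type-labelled arrays of 2 h by -3.92 ± 0.86 on the log2 scale, with a lowest signal of 128.5.

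Tissue makeup was looked at beside the genotype difference, since in bulk tissue fewer cells of a type and less RNA per cell cannot be told apart. The summed signal of the 4 mature neuron markers on the array (Omp, Adcy3, Cnga2 and Olfm1) ran from 48543 to 57830 in the wild-type-labelled arrays of 0 h and from 51553 to 58237 in the mutant-labelled ones. At 8 h it ran from 52283 to 57924 and from 54903 to 59546, at 16 h from 41583 to 47634 and from 59567 to 64016, and at 48 h from 27442 to 33093 and from 28766 to 39666, so that the labels overlapped at 0, 8 and 48 h and not at 16 h. Omp itself was higher in the mutant-labelled arrays over the 4 times (0.36 ± 0.05), and at 16 h by 0.62 ± 0.11 (adjusted p = 0.0014, limma). Over the 4 times Olfm1 (0.06 ± 0.08), Adcy3 (0.07 ± 0.07) and Cnga2 (-0.13 ± 0.08) did not pass. Sums of 4 markers of sustentacular cells, the supporting cells, were higher without overlap in the mutant-labelled arrays at 3 times: 26339 to 27771 and 29552 to 31691 at 0 h, 29879 to 38263 and 39626 to 45354 at 8 h, and 28744 to 38114 and 38774 to 42120 at 16 h. At 48 h they overlapped, at 31056 to 37269 and 30376 to 35653. Of these markers Krt8 (0.21 ± 0.07) and Krt18 (0.16 ± 0.06) were higher over the 4 times, and Cbr2 (-0.10 ± 0.08) and Hes1 (0.10 ± 0.08) did not pass. Sums of 3 ciliated-cell markers were also higher without overlap at 0 h (7273 to 8080 and 10678 to 12695) and 8 h (7427 to 8852 and 9015 to 12560), and overlapped at 16 h (8535 to 10166 and 7442 to 9525) and 48 h (4495 to 8541 and 6103 to 7357). Among them Spa17 was 0.45 ± 0.07 higher over the 4 times, while Foxj1 (0.06 ± 0.14) and Tekt1 (0.06 ± 0.09) did not pass. Sums of 5 macrophage markers were higher without overlap in the mutant-labelled arrays at 0 h (7469 to 9168 and 9312 to 14181). At 16 h they were lower without overlap (12448 to 16477 and 10737 to 12290). Averaged over the 4 times Lyz2, C1qa, Csf1r and Cd68 did not pass. At single times Lyz2 was called higher at 0 h (0.86 ± 0.28, adjusted p = 0.0302, limma) and C1qa at 48 h (0.57 ± 0.19, adjusted p = 0.0356, limma). The others did not pass at those times, and none of these markers passed at 8 or 16 h. Sums were also higher without overlap for red blood cells at 0 h, where Hba-a1 (0.33 ± 0.17) and Alas2 (0.52 ± 0.34) did not pass. The same held for immature neurons and brown fat at 16 h. There a set of Stmn2 was called higher (0.92 ± 0.17). Its other set, Gap43 (-0.24 ± 0.22), Dpysl3 (-0.448 ± 0.175), Tubb3 on both sets and the brown fat marker Cidea (0.42 ± 0.26) did not pass. Over the 4 times that Stmn2 set was higher (0.61 ± 0.08) and Dpysl3 lower (-0.525 ± 0.088). Sums were lower without overlap for basal cells at 16 and 48 h, where Trp63 did not pass, and for neutrophils at 48 h. The part of any of these cells in the member differences was not tested. In the same 12 and 12 arrays the 3' to 5' log2 difference of Gapdh ran from -0.31 to -0.13 in both labels, and that of actin from 0.56 to 0.89 and from 0.45 to 1.11.

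**Figure D4:**
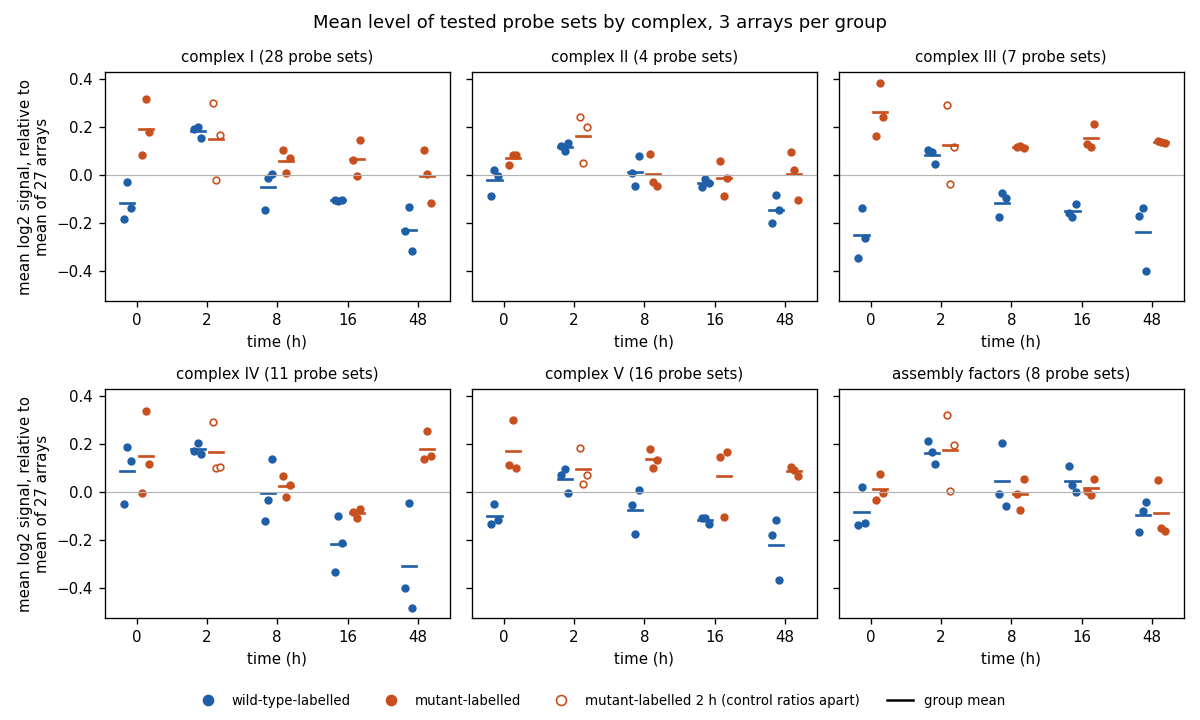
Mean log2 signal of the tested probe sets of each complex in every array, relative to the mean of 27 arrays, by time in hours; bars are means of 3 arrays and open points the mutant-labelled 2 h arrays. Complex III has every mutant-labelled array of 0, 8, 16 and 48 h above every wild-type-labelled one of those times, while the assembly factors overlap.

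Complex means show how far apart the labels lay. Relative to the mean of 27 arrays, complex III at 0 h stood at -0.25 ± 0.11 (SD, n = 3) under the wild-type label and at 0.26 ± 0.11 under the mutant label, and at -0.24 ± 0.14 and 0.14 ± 0.01 at 48 h. Complex I stood at -0.12 ± 0.08 and 0.19 ± 0.12 at 0 h and at -0.23 ± 0.09 and 0.00 ± 0.11 at 48 h. Over the 74 members the mean of the wild-type-labelled arrays went from -0.09 ± 0.08 at 0 h to 0.14 ± 0.03 at 2 h and -0.22 ± 0.11 at 48 h. The mutant-labelled arrays stood at 0.16 ± 0.11 at 0 h, 0.07 ± 0.04 at 8 h, 0.04 ± 0.07 at 16 h and 0.05 ± 0.06 at 48 h.

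Time after bulbectomy gave between 0 and 14 member calls per comparison with 0 h. All comparisons with 0 h of one label share its 3 arrays of 0 h, which also enter the genotype comparison at 0 h. Among the wild-type-labelled arrays 14 members were higher at 2 h and 0 lower (18.9%), against 1.23% of all tested probe sets higher and 0.660% lower (1.89% in all). Of these 14, 8 belong to complex I and 2 each to complexes III and V. Ndufa6 rose most (0.65 ± 0.10, adjusted p = 0.0115, limma), then Atp5md, which read 13853, 17024 and 13305 at 0 h and 22070.0, 23053 and 21809 at 2 h (0.61 ± 0.12). Ndufv3, Uqcrh, Cox17 and Ndufa5 rose by 0.49 to 0.51. Uqcrh read 15765, 17020 and 15520 at 2 h, above its 3 arrays of 0 h. The sums of the ciliated-cell markers were higher without overlap at 2 h (8867 to 9911) than at 0 h (7273 to 8080). Of these markers Spa17 was called higher (0.57 ± 0.15, adjusted p = 0.0489, limma), while Tekt1 (0.43 ± 0.18) and Foxj1 (-0.105 ± 0.276) did not pass. The part of ciliated cells in the rise of the members was not tested.

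The mean of the 74 members did not overlap between the wild-type-labelled arrays of 0 h (-0.159 to -0.004) and of 2 h (0.104 to 0.158). The median member was higher by 0.26 on the log2 scale, and the median of all tested probe sets was -0.03. Which members were called at 2 h, however, depended on single arrays. None of the 14 was called with every array left out in turn: 0 members were called without replicate 3 of 0 h or replicate 2 of 2 h, 2 without replicate 1 of 0 h, and 3 without replicate 1 or 3 of 2 h. All 30 arrays fitted together gave 5 calls, and the 6 arrays fitted alone gave 2, 1 in each direction. Quantile normalization gave 11 higher, and with it 75.8% of all calls were higher, in place of 65.2%. At an unadjusted p under 0.05 there were 42 members, against 1377 of all tested probe sets.

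At 8 h limma called 0 members in either label. In the wild-type-labelled comparison 0.201% of all tested probe sets were higher and 0.0431% lower (0.244% in all), and 4 members had an unadjusted p under 0.05, against 670 of all. In the mutant-labelled comparison 1.71% were higher and 0.832% lower (2.54% in all), and 9 members had an unadjusted p under 0.05, against 1164 of all. Without the filter on dim signals, or with only the 6 arrays in the fit, the mutant-labelled comparison called 1 member. In the wild-type-labelled comparison of 16 h with 0 h 1 member was higher and 3 lower, against 4.94% and 4.65% of all (9.59% in all), and with quantile normalization 2 were higher and 3 lower. Cox17 rose by 0.38 ± 0.10 and Ndufa10 fell by 0.42 ± 0.11, and the other 2 were the probe sets of Cox8b. Without replicate 1 of 0 h or of 16 h, Cox8b alone was left, with 2 calls.

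At 48 h 8 members were lower in the wild-type-labelled arrays and 0 higher, against 9.04% of all tested probe sets lower and 9.80% higher (18.8% in all), so their share, 10.8%, lay near the background. Ndufs4, an accessory subunit that complex I needs to be stable, read 916.5, 1003 and 1115 at 0 h and 593.1, 717.4 and 592.2 at 48 h, without overlap, and fell by 0.67 ± 0.13 (adjusted p = 0.0012, limma). Ndufa10 fell from 1230, 1331 and 1085 to 823.2, 817.8 and 836.0 (-0.55 ± 0.11, adjusted p = 0.00131, limma). Both held with each array left out. Cox6b2 (-0.77 ± 0.23), Atp5k (-0.50 ± 0.17), Ndufv3 (-0.37 ± 0.13) and Cox5b (-0.33 ± 0.10) lost their calls in some of these fits. The count went to 4 without replicate 3 of 0 h or replicate 1 or 3 of 48 h, and to 5 without replicate 2 of 0 h.

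In the mutant-labelled arrays 5 members were lower at 48 h and 0 higher, against 6.79% and 6.46% of all (13.2% in all). Ndufb8, a membrane-arm subunit, read 6230, 7410 and 7678 at 0 h and 5388, 4974 and 4585 at 48 h, and fell by 0.51 ± 0.10 (adjusted p = 0.00213, limma). It was also the one member called at 16 h, where it fell by 0.41 ± 0.10, against 2.54% of all lower and 2.64% higher (5.18% in all). That call was lost without replicate 2 or 3 of 0 h or replicate 1 or 2 of 16 h, and without replicate 3 of 16 h there were 2. Ndufs4 fell by 0.53 ± 0.13, as it did in the other label, and Ndufv2 on its bright set, Cox7b and Uqcrc2 fell by 0.37 to 0.41. The dimmer set of Ndufv2 did not pass (-0.10 ± 0.14). Only Ndufb8 held at 48 h with each array left out: the count was 1 without replicate 2 of 0 h, 2 and 3 without replicates 2 and 3 of 48 h, and 15 without replicate 1 of 48 h. The fit of all 30 arrays called 3, a fit with a variance trend and robust variances 9, and a fit of only the 6 arrays 0.

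At 2 h, on the mutant-labelled arrays that stand apart, 3 members were higher and 5 lower than at 0 h, against 7.38% and 10.3% of all (17.7% in all). Higher were Sdha (0.47 ± 0.13), Sdhaf2 (0.38 ± 0.12) and Cox7a2l (0.34 ± 0.09). Lower were Atp5d on 1 of its sets (-0.67 ± 0.22), Ndufb8 (-0.53 ± 0.10), Uqcr11 (-0.52 ± 0.13), Atp5l (-0.44 ± 0.12) and Ndufb2 on its dimmer set (-0.35 ± 0.10). The summed signal of the mature neuron markers ran from 24566 to 37086 in these arrays, against 51553 to 58237 at 0 h, and its part in these calls was not tested. Without replicate 2 of 0 h 2 were called, with replicate 2 as the only 2 h array 3, and with only the 6 arrays in the fit 0.

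Markers of other cells also moved by 48 h. Among the wild-type-labelled arrays Omp fell by 0.78 ± 0.11 and Adcy3 by 1.06 ± 0.14, and Cnga2 fell on both of its sets, while Olfm1 did not pass (-0.47 ± 0.17). The ciliated-cell marker Spa17 fell by 0.83 ± 0.15, while Tekt1 (-0.11 ± 0.18) and Foxj1 (0.18 ± 0.28) did not pass. The sustentacular marker Krt18 rose by 0.41 ± 0.11, while Krt8 (0.20 ± 0.14), Cbr2 (0.28 ± 0.15) and Hes1 (0.09 ± 0.16) did not pass. Of 4 tested macrophage markers Cd68 (0.81 ± 0.16) and Lyz2 (1.36 ± 0.28) rose, and C1qa (0.40 ± 0.19) and Csf1r (-0.01 ± 0.14) did not pass. Of 4 tested neutrophil markers S100a8 (2.09 ± 0.36) and S100a9 (2.01 ± 0.38) rose, Camp fell (-1.85 ± 0.51, adjusted p = 0.0137, limma) and Ngp did not pass (-0.65 ± 0.90). The summed signal of 5 macrophage markers ranged between 7469 and 9168 at 0 h and between 12883 and 17521 at 48 h, and that of 5 neutrophil markers between 4184 and 16340 and between 16746 and 29444.

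In the mutant-labelled arrays the neuron markers fell as well by 48 h, Omp by 0.60 ± 0.11, Adcy3 by 0.80 ± 0.14 and Olfm1 by 1.17 ± 0.17, along with both sets of Cnga2. Their sums did not overlap between 0 and 48 h under either label. Spa17 fell by 1.02 ± 0.15 and Tekt1 by 0.64 ± 0.18, while Foxj1 did not pass (-0.43 ± 0.28). Cbr2 rose by 0.80 ± 0.15, while Krt8 (0.03 ± 0.14), Krt18 (0.08 ± 0.11) and Hes1 (-0.09 ± 0.16) did not pass. Cd68 rose by 0.64 ± 0.16 and C1qa by 0.57 ± 0.19, while Lyz2 (0.255 ± 0.278) and Csf1r (-0.01 ± 0.14) did not pass. None of the 4 tested neutrophil markers passed there, with S100a8 at -0.08 ± 0.36. The part of these changes in the falls of the members was not tested in either label.

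**Figure D5:**
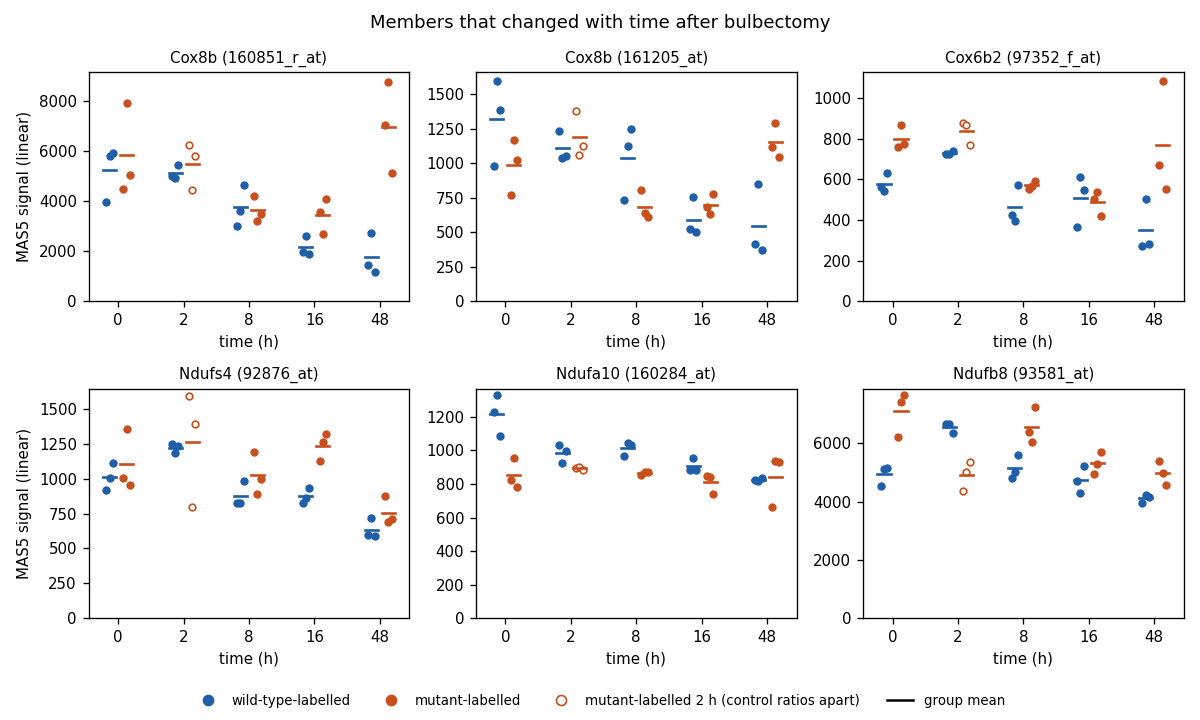
MAS5 signal (linear scale) of 6 member probe sets that changed with time, in every array by time in hours, with a bar at the mean of 3 arrays; open points are the mutant-labelled 2 h arrays. On both Cox8b sets the 3 wild-type-labelled arrays of 48 h lie below every wild-type-labelled array of 0 h and below every mutant-labelled array of 48 h.

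Cox8b was the member whose course differed between the labels. On its brighter probe set the wild-type-labelled arrays read 3969, 5793 and 5903 at 0 h, 4981, 4923 and 5427 at 2 h, 3011, 3618 and 4621 at 8 h, 1955, 2617 and 1903 at 16 h, and 1433, 2741 and 1175 at 48 h. The mutant-labelled arrays read 4482, 7917 and 5044 at 0 h, 4183, 3217 and 3470 at 8 h, 3560, 2689 and 4070 at 16 h, and 7023, 8741 and 5126 at 48 h. In the first the signal was low at 16 and 48 h. In the second, at 8 and 16 h it was below the 0 h arrays and at 48 h within or above their range. Neither the 8 h nor the 16 h difference from 0 h was called in the mutant-labelled arrays (-0.65 ± 0.27 and -0.73 ± 0.27). On the dimmer probe set the mutant-labelled arrays of 8 and 16 h overlapped those of 0 h. Cox8b fell in the wild-type-labelled arrays by 1.27 ± 0.27 at 16 h and by 1.63 ± 0.27 at 48 h (3.09-fold, adjusted p = 0.00025, limma). At 48 h it was higher in the mutant-labelled arrays by 2.03 ± 0.27, or 4.08-fold (adjusted p = 3e-05, limma). The second probe set fell by 1.15 ± 0.25 and 1.35 ± 0.25 and differed by 1.17 ± 0.25 between labels at 48 h.

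Of the 74 members, the 2 probe sets of Cox8b alone passed the test of whether the change from 0 h to 8, 16 and 48 h differs between the labels (moderated F in limma, adjusted p = 0.00723 and 0.0156), against 5.96% of all tested probe sets. Both passed with each of 24 arrays left out in turn. Without mutant-labelled replicate 1 of 48 h the count of members was 6. The change from 0 to 48 h was greater in the mutant-labelled arrays by 1.90 ± 0.38 and 1.59 ± 0.36. Cox6b2 had a like difference between labels at 48 h (1.13 ± 0.23, adjusted p = 0.0015, limma), reading 274.0, 506.4 and 280.4 against 672.2, 1086 and 554.6, and its test of the change did not pass (adjusted p = 0.0993, limma).

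Cox8b is known from skeletal muscle, heart and brown fat. Skeletal muscle markers were dim here: Tnnt3 and Tnni2 lay at or below the floor on all 30 arrays, Acta1 read at most 194.6 and Ckm at most 723.9, and of 10 markers only Pvalb was tested. Pvalb differed by 0.23 ± 0.28 between labels at 48 h (adjusted p = 0.605, limma). The summed signal of the 10 markers ran from 5114 to 5996 and from 4506 to 6657 in the wild-type-labelled arrays of 0 and 48 h, and from 4875 to 7205 in the mutant-labelled arrays of 48 h. Ucp1, which defines brown fat, read at most 134.7, and Cidea read 1152 to 3738 and was lower in the mutant-labelled arrays of 48 h (-0.75 ± 0.26, adjusted p = 0.0448, limma). Among the markers of other cells the neutrophil markers S100a8 and S100a9 passed the same test of the course, with changes from 0 to 48 h that were -2.17 ± 0.51 (adjusted p = 0.0215, limma) and -2.10 ± 0.54 (adjusted p = 0.0449, limma) in the mutant-labelled minus the wild-type-labelled arrays, opposite in sign to Cox8b. At 48 h they differed between labels by -1.94 ± 0.36 and -2.08 ± 0.38. The other tested neutrophil markers, Camp (1.175 ± 0.719) and Ngp (0.179 ± 1.274), did not pass the test of the course. Their changes from 0 to 48 h had the same sign as that of Cox8b. Between labels at 48 h Camp was higher in the mutant-labelled arrays (1.604 ± 0.509, adjusted p = 0.0296, limma), and Ngp did not pass (0.783 ± 0.901). The part of these cells in the course of Cox8b was not tested.

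Lists of other mitochondrial genes were compared between the labels over the same 4 times. There 0 of 9 tested genes of mitochondrial biogenesis were higher and 7 lower (median -0.22), among them Gabpa (-0.47 ± 0.05), the DNA-binding part of GABP, its partner Gabpb1 (-0.24 ± 0.07), and Lrpprc (-0.32 ± 0.07), which stabilises mitochondrial mRNAs. Of 16 genes of the tricarboxylic acid cycle 4 were higher and 4 lower (median 0.01), with Sucla2 at 0.24 ± 0.05 and Idh3g at -0.33 ± 0.06. Of 19 import and outer membrane genes 4 were higher and 3 lower (median -0.04), with Timm8b at 0.37 ± 0.05 and Tomm20 at -0.37 ± 0.07. Among 17 genes of electron carriers and other respiratory chain proteins 8 were higher and 4 lower (median 0.13). Atpif1, the inhibitor protein of complex V, was higher (0.46 ± 0.05), and Cycs, cytochrome c, lower (-0.43 ± 0.08). Nnt, the proton-pumping transhydrogenase, had the largest difference of this list (-1.33 ± 0.08, adjusted p = 1.28e-10, limma). Nnt is known to be partly deleted in 1 common laboratory strain, C57BL/6J, and since the labels give no strain, strain and mutation cannot be told apart here.

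Bright probe sets and ribosomal proteins were set beside the members after their values had been seen. Of 1691 other probe sets in the brightest 25% of tested ones 559 (33.1%) were higher and 289 lower, with a median of 0.05. Of the 51 members as bright as these 40 (78.4%) were higher and 0 lower, with a median of 0.25. Among 26 tested genes of cytosolic ribosomal proteins 15 (57.7%) were higher and 0 lower (median 0.17), and among 56 of mitochondrial ribosomal proteins 17 (30.4%) were higher and 8 lower (median 0.04). The member genes lie on 19 chromosomes, and at least 1 tested member gene was higher on each of them.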

How the data were processed

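RNA of 30 olfactory epithelium samples was measured on 1-colour Affymetrix MG-U74Av2 arrays. The values are MAS5 signal intensity per probe set, as deposited by the authors; MAS5 is named in the submitters' processing notes with no version. The 2% trimmed mean of each array lay between 1500.7 and 1500.9, so the arrays had been scaled to a common mean. Every column was used and assigned to its array by its label, and no 2 arrays held identical values. Precision is limited by having 3 arrays per group.

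Of 12488 probe sets 66 were controls, 10833 had 1 annotated gene, 396 several and 1193 none. Another 11 probe sets with a member symbol beside other genes were left out. A floor of 113.7 (the 25th percentile over the 30 arrays) was applied and log2 was taken. The 6968 probe sets above the median, 572, on at least 3 arrays were tested with limma 3.58.1 in R 4.3.3 (lmFit and eBayes, 1 mean per group, two-sided), with Benjamini-Hochberg adjustment over all of them and a threshold of 0.05. The fit held 27 arrays, without the mutant-labelled 2 h arrays, and all 30 where a comparison needs these. The test of whether time courses differ is a moderated F of 3 differences. Errors beside log2 differences are the SE of the fit. Counts and figures were made with Python 3.11.15, numpy 2.4.6, pandas 2.3.3 and matplotlib 3.10.9. The steps were tested on simulated data.

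Named are, per comparison, all called members where a direction has 8 or fewer and otherwise the 6 with the largest change, the brightest member of each class, the isoform sets, probe sets of 1 gene that disagree in sign, up to 3 called genes of each related list, and Msr1 and Omp. Further members are named from their values. The members and lists were chosen with earlier results of these data known. The promoters come from RefSeq (GRCm38.p6), whose gene table held all 78 member genes. Replicate numbers are shared by the groups, but deviations from the group means correlated between -0.314 and 0.351 for same-numbered arrays, with every pair over 0.1 in 0 of 13 comparisons, so no pairing was used.

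Alternatives were quantile normalization, 16 added to each signal (a pseudocount) with no floor, no filter, a variance trend with robust variances, only the groups compared, all 30 arrays, the replicate number as a block, and each array left out in turn.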

Additional observations from a re-analysis of the deposited data

Results flagged for a closer look

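The change of Cox8b from 0 h to 48 h differed between the labels by a test of that difference. On the brighter probe set the change was 1.90 ± 0.38 greater on the log2 scale in the mutant-labelled arrays (mutant-labelled minus wild-type-labelled; limma F test over 8, 16 and 48 h, adjusted p = 0.00723). On the other it was 1.59 ± 0.36 greater (adjusted p = 0.0156, limma).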

How the results depend on the processing

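Counts of called members depended on how the spread was estimated. Fits of only the groups compared called 2 at 2 h, where the wild-type-labelled arrays are compared with 0 h. For the mutant-labelled arrays they called 0 at 2 h, 1 at 8 h and 0 at 48 h, and between the labels 0 at 2 h, 0 at 8 h, 8 at 16 h and 3 at 48 h. With all 30 arrays there were 5 for the wild-type-labelled arrays at 2 h, 3 for the mutant-labelled ones at 48 h and 5 between the labels at 8 h. Quantile normalization gave 6 between the labels at 8 h and 11 at 16 h, no filter gave 1 for the mutant-labelled arrays at 8 h, and a variance trend with robust variances gave 9 for them at 48 h. With replicate 2 as the only mutant-labelled array of 2 h, a setting chosen after seeing the data, 3 were called against 0 h and 0 between the labels.

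Leaving out each array in turn gave, against 0 h in the wild-type-labelled arrays, 0 to 12 members at 2 h, 0 to 0 at 8 h, 2 to 5 at 16 h and 4 to 8 at 48 h. In the mutant-labelled arrays it gave 2 to 10, 0 to 0, 0 to 2 and 1 to 15. Between the labels it gave 25 to 37 at 0 h, 0 to 3 at 2 h, 1 to 7 at 8 h, 7 to 14 at 16 h, 20 to 32 at 48 h and 48 to 53 for the mean of 4 times, and for the difference in time course 2 to 6.

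The replicate block called 13, 0, 4 and 7 members at 2, 8, 16 and 48 h in the wild-type-labelled arrays, 8, 0, 1 and 6 in the mutant-labelled ones, and 36, 1, 11, 18 and 31 between the labels at 0, 2, 8, 16 and 48 h. For the mean of 4 times it called 50 and for the difference in time course 2. The arrays share only a number, and the only named call the block ended was Ndufv3 in the wild-type-labelled comparison of 48 h with 0 h (adjusted p = 0.0577, limma).

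No member named for a comparison changed direction under any of these settings. Of their 78 calls, the pseudocount kept 78, the variance trend 78, no filter 72, quantile normalization 68 and the fit of only the groups compared 43. Dim probe sets were limited by the floor, and the fit assumes a like spread in all groups.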
